A study of Homo sapiens with 2 samples.

Results

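The genes of the proteasome, 44 in all of 19316 genes listed in the deposited files, were compared between SNU449 cells with an FZD2 shRNA and SNU449 cells with a control shRNA. Members were the protein-coding genes whose symbol is PSMA, PSMB, PSMC, PSMD, PSME, PSMF or PSMG followed by a number, leaving out PSMB8 and PSMB9. The rule used no measured value. SNU449 is an established human liver cancer cell line, although the growth protocol calls the cells prostate. Both groups were lentivirally transduced and sequenced 7 days later as poly(A) RNA, and FZD2 encodes a frizzled receptor for Wnt ligands. There was 1 library per group, so no difference could be tested and a value shows these libraries, not the spread between cultures. The labels used here do not say whether the cells are a clone or a pool.

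The proteasome degrades proteins that carry ubiquitin chains. Its barrel-shaped core particle has outer alpha rings, which gate the entrance, and inner beta rings, which hold the proteolytic sites. The regulatory particle caps the core: its base holds a ring of ATPases that unfolds the substrate, and its lid holds the enzyme that removes ubiquitin. Separate chaperones assemble the core and the base, and other activators can take the place of the regulatory particle. Cells that lack proteasome activity raise the subunit genes together through the transcription factor NFE2L1, which binds antioxidant response elements in their promoters.

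Promoters are shown for 4 members, to set the regulatory letters beside the ratios that follow: PSMC2 and PSMD10, the lowest in FZD2 shRNA cells relative to control, PSMD1, the highest, and PSMG1, a lower member that shares a motif with PSMD1. Windows run from 250 bases before to 50 after the annotated start and come from RefSeq (GRCh38.p14), which had a window for 38 of the 44 members. They lie at chr7:103347393-103347692 (plus strand), chrX:108091493-108091792 (minus), chr2:231056617-231056916 (plus) and chr21:39183402-39183701 (minus). Capitals mark the antioxidant response element core (TGACNNNGC), the CCAAT box (CCAAT) and the ETS core (CCGGAAG), searched on both strands. No marked matches overlap.
PSMC2: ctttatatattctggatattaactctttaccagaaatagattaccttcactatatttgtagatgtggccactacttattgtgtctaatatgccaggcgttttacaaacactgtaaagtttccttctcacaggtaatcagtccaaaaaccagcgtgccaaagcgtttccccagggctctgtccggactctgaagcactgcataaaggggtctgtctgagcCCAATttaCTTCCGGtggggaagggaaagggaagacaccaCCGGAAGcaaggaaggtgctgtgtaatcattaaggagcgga
PSMD10: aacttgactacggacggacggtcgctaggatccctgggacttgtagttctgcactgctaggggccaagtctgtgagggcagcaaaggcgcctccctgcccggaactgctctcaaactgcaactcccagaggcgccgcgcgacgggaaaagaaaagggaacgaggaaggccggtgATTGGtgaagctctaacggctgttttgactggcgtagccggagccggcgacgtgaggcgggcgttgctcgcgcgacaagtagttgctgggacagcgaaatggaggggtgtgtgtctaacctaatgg
PSMD1: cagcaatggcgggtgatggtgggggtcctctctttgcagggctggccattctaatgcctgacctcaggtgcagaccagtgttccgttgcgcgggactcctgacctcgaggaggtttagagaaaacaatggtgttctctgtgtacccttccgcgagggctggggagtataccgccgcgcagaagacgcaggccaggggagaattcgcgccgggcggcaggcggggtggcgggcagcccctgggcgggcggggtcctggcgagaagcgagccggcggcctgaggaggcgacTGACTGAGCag
PSMG1: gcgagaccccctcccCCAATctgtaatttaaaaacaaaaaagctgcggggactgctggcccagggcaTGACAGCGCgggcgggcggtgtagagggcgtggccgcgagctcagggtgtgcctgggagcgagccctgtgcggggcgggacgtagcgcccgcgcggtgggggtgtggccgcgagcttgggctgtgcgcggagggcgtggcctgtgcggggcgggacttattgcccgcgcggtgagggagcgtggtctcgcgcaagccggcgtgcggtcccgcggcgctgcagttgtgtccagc

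PSMD1 held the antioxidant core TGACTGAGC at base 40 after the start, and PSMG1 held TGACAGCGC at base -183 and a CCAAT box at base -235. PSMC2 held a CCAAT box at base -31 and ETS cores at bases -23 and 10. PSMD10 held a CCAAT box at base -76. Over all 46 windows of the members, 14 (30.4%) held the antioxidant core, against 13.8% of 22199 windows of protein-coding genes. For the ETS core the shares were also 30.4% (14 of 46) against 12.8%, for the CCAAT box 39.1% against 34.7%, and for the GC box (GGGCGG) 67.4% against 56.3%. The TATA box (TATAAA) was in 8.70% against 9.47%. Members with and without the antioxidant core overlapped in ratio. The 14 genes with an antioxidant core had log2 ratios from -0.84 to 0.90 (median -0.04), and the 24 without one had ratios from -1.23 to 0.70 (median -0.21). Medians with and without a match were -0.21 and -0.05 for the ETS core and -0.22 and -0.07 for the CCAAT box. They were -0.05 and -0.29 for the GC box and 0.01 and -0.1 for the TATA box. The 6 members without a window (PSMA7, PSMB1, PSMB6, PSMB7, PSMD4 and PSMG3) are in none of these groups. A match is a run of letters in these windows and not a measured binding site.

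The FZD2 shRNA library held 8234592 expected counts and the control library 8436870. The targeted gene FZD2 stood at 15.76 FPKM in FZD2 shRNA cells against 59.45 FPKM in control cells (log2 ratio -1.85). Ratios are log2((FPKM + 1)/(FPKM + 1)), FZD2 shRNA over control, and a gene was called measured at 1 FPKM or more in at least 1 library. Every listed member was measured, each with at least 101 reads in each library. PSMA8 and PSMB11, the testis and thymus forms of core subunits, were listed in neither library. Of 8 hepatocyte markers none reached 1 FPKM (summed level 1.02 against 0.93 FPKM), and ALB was at 0.05 FPKM in FZD2 shRNA cells and unlisted in control cells. Of 8 prostate marker symbols, of which ACPP and ACP3 name the same gene, 3 were measured (summed level 9.79 against 7.70 FPKM). KLK3 and KLK2 were listed in neither library. Of 5 leukocyte markers 4 were measured (summed level 94.23 against 27.74 FPKM). LYZ, whose reads were partly shared with other genes, made up 71.47 against 12.31 FPKM of that, while CD3E was listed in neither library. The part of other cells in the values below was not tested. In bulk RNA, fewer cells that express a gene and less RNA per cell cannot be told apart.

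The proteasome as a whole took almost the same share of the reads in both libraries, and its genes spread to both sides. Members summed to 54748 expected counts in the FZD2 shRNA library, or 0.665% of the library (95% Wilson interval 0.659 to 0.670). In the control library they summed to 53929 counts, or 0.639% (0.634 to 0.645). The log2 ratio of these shares was 0.0568 (0.0396 to 0.0739), an interval that, like all intervals here, covers counting error only. Of the 44 members, 21 had a log2 ratio above 0 and 23 below, with a median of -0.05. The median over all 14377 measured genes was -0.00, and over the 8154 measured genes without shared reads it was -0.25.

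At the 2-fold limit, 0 members were higher and 2 were lower in the FZD2 shRNA library, PSMC2 and PSMD10. Among all measured genes 15.2% were at least 2-fold higher and 7.41% at least 2-fold lower. Among those without shared reads the shares were 4.19% and 10.2%. At 1.5-fold, 2 members were higher (PSMD1 and PSMD7) and 6 were lower (PSMC2, PSMD10, PSMC6, PSMG1, PSMD5 and PSMD14), against 26.1% and 21.7% of all measured genes. Among those without shared reads 11.2% were at least 1.5-fold higher and 29.8% lower. At both fold limits the members' shares were below these backgrounds, but on the lower side at 2-fold this rests on 2 members. The backgrounds also hold genes at lower levels than any member, and the gap was not tested. Of 1182 protein-coding genes without shared reads whose larger FPKM value was 50 or more, 93 were at least 2-fold higher and 92 lower. At 1.5-fold 236 of these were higher and 278 lower. By counting error alone, 16 members had an interval above 0, 19 below 0, and 9 that included 0. The same rule put 35.5% of all measured genes above and 36.8% below, and here the members' shares were not below the background.

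**Figure D1:**
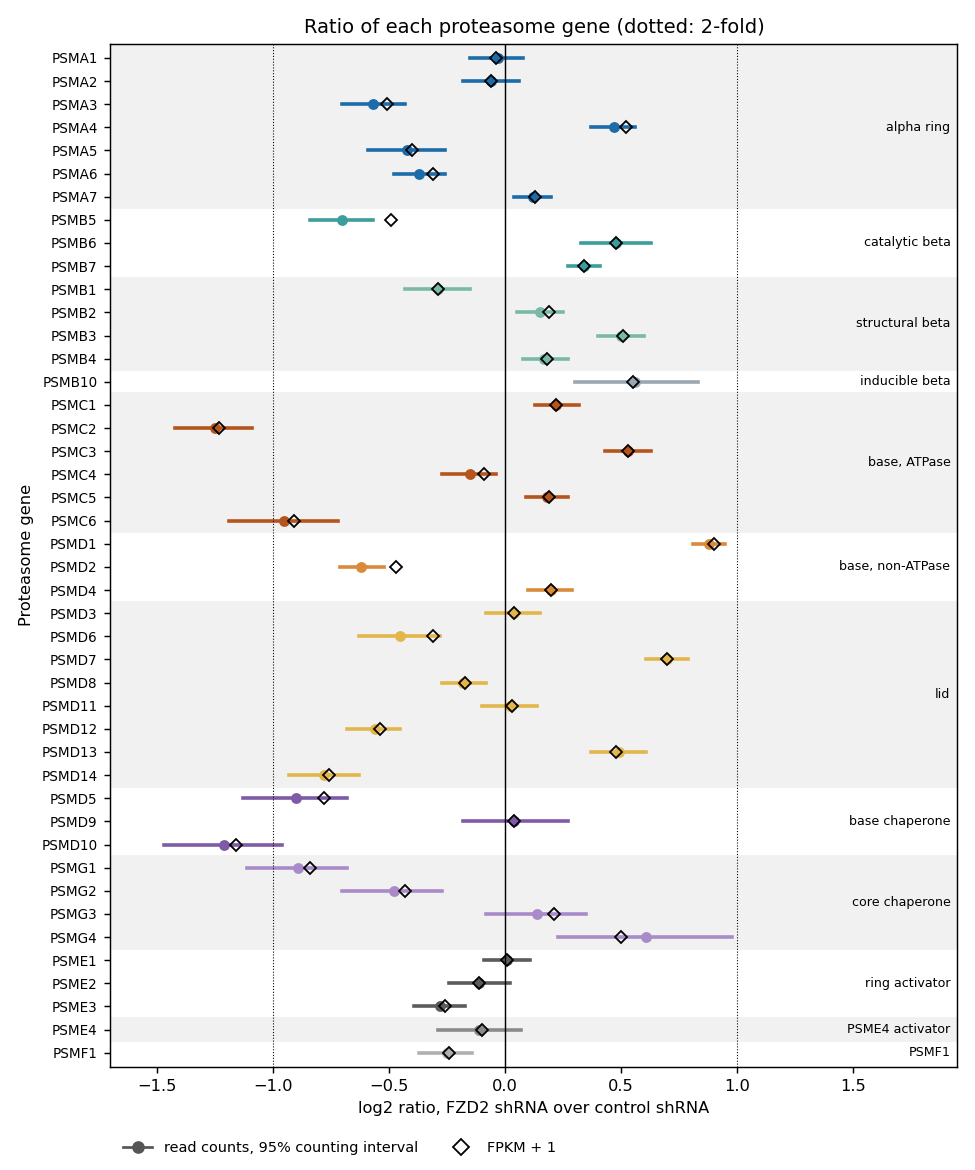
Log2 ratio of each proteasome gene, FZD2 shRNA over control shRNA, with genes grouped by role from the alpha ring at the top to PSMF1 at the bottom. Filled points are ratios of read counts with the 95% counting interval, open diamonds are ratios of FPKM + 1, and dotted lines mark 2-fold. PSMC2 and PSMD10 lie beyond the lower line and no gene lies beyond the upper one, with PSMD1 nearest at 0.90.

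The core and regulatory particles had nearly the same median ratio but a different spread. The 14 core genes had a median of 0.04 and ran from -0.51 (PSMA3) to 0.52 (PSMA4), with 7 above 0 and 7 below. The 17 regulatory genes had a median of 0.03 and ran from -1.23 (PSMC2) to 0.90 (PSMD1), with 9 above 0 and 8 below. The medians differed by 0.02. The standard deviation over genes was 0.37 for the core and 0.58 for the regulatory particle. Both were below the 0.87 of all measured genes and the 0.68 of those without shared reads. At 1.5-fold 0 of the 14 core genes and 5 of the 17 regulatory genes passed. Among all measured genes 26.1% passed as higher and 21.7% as lower, and among those without shared reads 11.2% and 29.8%. The difference in spread was not tested. Summed over genes, core transcripts came to 2366 FPKM in FZD2 shRNA cells against 2150 FPKM in control cells, and regulatory transcripts at 1662 against 1503 FPKM, log2 ratios of 0.14 and 0.15. With the trend of the ratios with GC content taken out, the medians were 0.45 for the core and 0.19 for the regulatory particle. The median of all measured genes moved to 0.23. That step also takes out the overall level of genes without shared reads, whose median moved from -0.25 to -0.01, so its shifts are not from GC content alone.

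**Figure D2:**
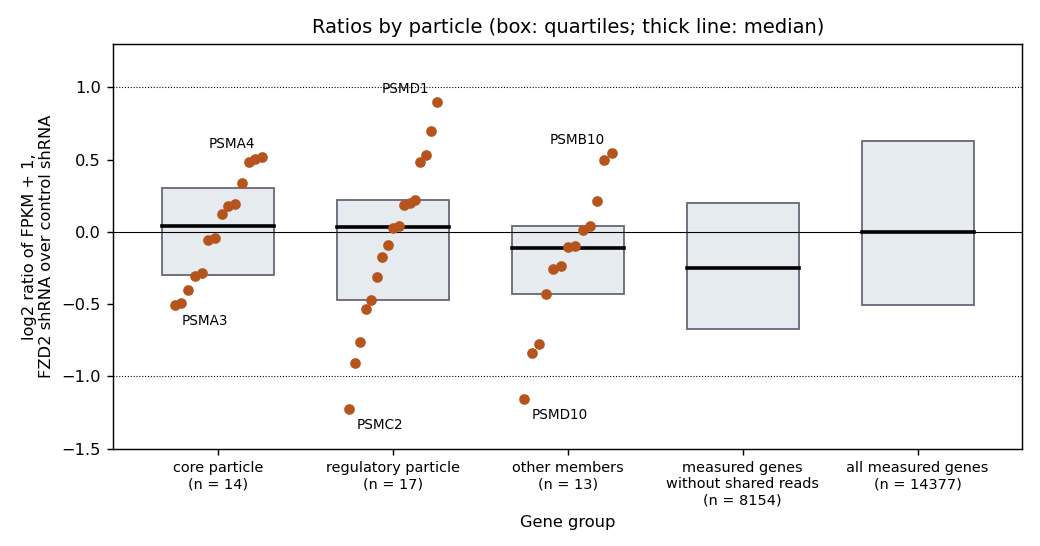
Log2 ratio of FPKM + 1, FZD2 shRNA over control shRNA, for members of the core particle, the regulatory particle and neither (points), beside measured genes without shared reads and all measured genes (boxes only). Boxes run from the lower to the upper quartile and thick lines are medians. The core and regulatory medians are 0.04 and 0.03, and the regulatory points reach farther both ways.

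Within the core, the alpha genes lay on both sides of 0. Of the 7 alpha genes 2 were above 0 and 5 below, with a median log2 ratio of -0.06. That balance turned with the scaling: in TPM 4 were above 0 and 3 below (median 0.10). With the GC trend taken out all 7 were above 0 (median 0.36). The median was then 0.23 over all measured genes and -0.01 over those without shared reads. PSMA4, a gate subunit, was at 233.33 FPKM in FZD2 shRNA cells against 162.46 FPKM in control cells (log2 ratio 0.52). PSMA3 stood at the other end of the ring, at 90.45 against 128.87 FPKM (-0.51). PSMA6 (149.25 against 185.07 FPKM) and PSMA5 (16.02 against 21.45, with shared reads) were lower as well, and the intervals of their count ratios lay below 0. PSMA1 and PSMA2 differed by less than counting error, at log2 ratios of -0.04 and -0.06, and PSMA7, the most abundant alpha transcript, was at 313.17 against 286.85 FPKM (0.13). The ring holds its subunits at equal numbers, while their transcripts differed in both level and ratio.

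Of the 7 constitutive beta genes 5 were above 0 and 2 below, with a median log2 ratio of 0.19. The catalytic genes lay on both sides of 0. PSMB7, which carries the trypsin-like site, was the most abundant member of all in both libraries, at 426.17 FPKM in FZD2 shRNA cells against 336.59 in control cells (log2 ratio 0.34). PSMB6, with the caspase-like site, was at 122.42 against 87.45 FPKM (0.48). PSMB5, with the chymotrypsin-like site that the drug bortezomib blocks, was instead lower, at 77.26 against 109.05 FPKM (-0.49). From 679 against 1134 reads, its count ratio was -0.70 on the log2 scale (-0.84 to -0.57). The deposited length of PSMB5, by which FPKM is scaled, also differed: it was 1081.64 bases for FZD2 shRNA cells against 1240.53 for control cells (-12.8%).

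Among the structural beta genes, PSMB3 was at 332.43 against 233.70 FPKM (0.51), PSMB4 at 263.94 against 233.26 (0.18) and PSMB1 at 100.52 against 122.78 (-0.29). PSMB2 was at 42.06 against 36.71 FPKM (0.19), with shared reads. PSMB10, the immune counterpart of PSMB7 and no part of the constitutive core, was higher in FZD2 shRNA cells, at 34.86 against 23.57 FPKM (0.55). It had 288 against 200 reads, which gave a count ratio of 0.56 (log2, 0.30 to 0.83).

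The widest range in the complex was in the base. Its ATPase ring is built of PSMC1 to PSMC6 at equal numbers, and 3 of the 6 genes were above 0 and 3 below. PSMC2 was at 17.51 FPKM in FZD2 shRNA cells against 42.33 in control cells, which is 2.34-fold lower (log2 ratio -1.23). With 411 against 1005 reads, the count ratio was -1.25 (log2, -1.42 to -1.09). PSMC6 was at 16.82 against 32.46 FPKM (-0.91). PSMC3 ran the other way, at 143.47 against 98.91 FPKM (0.53). PSMC1 (151.06 against 129.23), PSMC5 (192.09 against 168.83) and PSMC4 (79.77 against 85.16) lay between. PSMC2 and PSMC6 were the least abundant ATPase transcripts in both libraries, well below the other 4.

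The base scaffolds PSMD1 and PSMD2 parted. PSMD1 had the highest ratio of the 44 members, at 180.98 FPKM in FZD2 shRNA cells against 96.74 in control cells (log2 0.90), from 4754 and 2641 reads. In TPM it passed 2-fold, as 1 higher member. PSMD2 was at 68.59 against 95.64 FPKM (-0.47), and its deposited length also differed, by -8.79%. The ubiquitin receptor PSMD4 was at 174.38 against 151.71 FPKM (0.20, with shared reads).

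In the lid, 4 genes were above 0 and 4 below, and the enzyme and its partner lay on opposite sides. PSMD14, the deubiquitinase that cuts ubiquitin chains from the substrate, was at 40.56 FPKM in FZD2 shRNA cells against 69.37 in control cells (log2 ratio -0.76). PSMD7, which pairs with it, was at 197.68 against 121.22 FPKM (0.70). PSMD13 was at 93.10 against 66.35 FPKM (0.48), while PSMD12 was at 26.46 against 38.79 (-0.54, with shared reads). PSMD6 was at 45.87 against 57.24 FPKM (-0.31) and PSMD8 at 131.56 against 148.58 (-0.17). PSMD3 (0.04) and PSMD11 (0.03) had intervals that included 0.

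**Figure D3:**
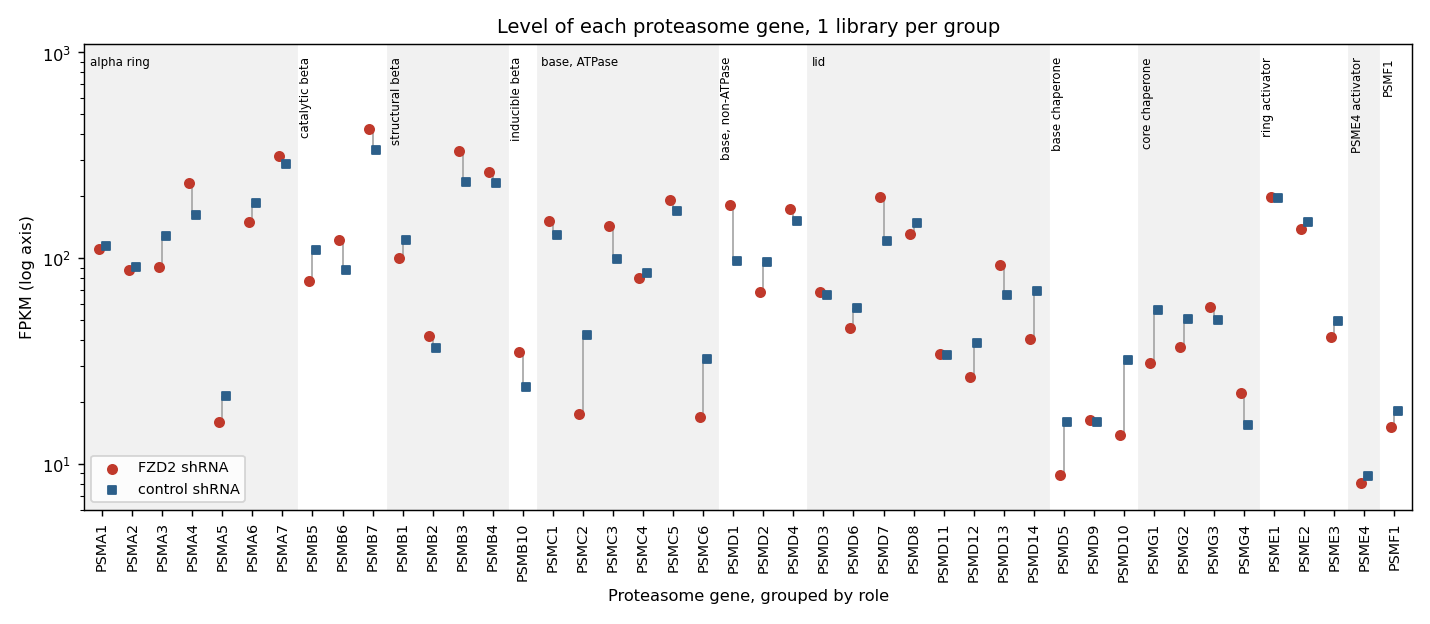
FPKM of each proteasome gene on a log axis, grouped by role, with the FZD2 shRNA library as circles and the control shRNA library as squares, 1 library each. Most pairs of marks lie close together, with PSMB7 highest and PSME4 lowest in both libraries, and PSMC2, PSMC6, PSMD10 and PSMD1 show the widest gaps.

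Assembly chaperones of the base were lower, apart from PSMD9. Each is part of a module with base subunits before the ring closes. PSMD5 is in that of PSMC1, PSMC2 and PSMD2, PSMD9 in that of PSMC3 and PSMC6, and PSMD10 in that of PSMC4 and PSMC5. PSMD10, also known as the oncoprotein gankyrin in liver cancer, was at 13.82 FPKM in FZD2 shRNA cells against 32.13 in control cells, which is 2.24-fold lower (log2 ratio -1.16). With 180 against 428 reads, the count ratio was -1.21 (log2, -1.47 to -0.96). The 2-fold call for PSMD10 ended with a pseudocount of 5 FPKM (-0.98). Both 2-fold calls ended with the GC trend taken out, at -0.73 for PSMC2 and -0.65 for PSMD10. Part of that move is a shift of level, as the median of all measured genes moved to 0.23 in the same step. PSMD5 was at 8.87 against 15.93 FPKM (-0.78, with shared reads). PSMD9 was at 16.41 against 15.91 FPKM (0.04), a difference within counting error. Chaperones and the base subunits of their modules lay on the same side in part. Beside PSMD5, PSMC2 (-1.23) and PSMD2 (-0.47) were also below 0 and PSMC1 (0.22) was above. Beside PSMD10 the ATPases PSMC4 and PSMC5 had log2 ratios of -0.09 and 0.19. Beside PSMD9 the ATPases PSMC3 and PSMC6 had ratios of 0.53 and -0.91.

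Chaperones of the core work in pairs, and their genes lay on both sides of 0. PSMG1 and PSMG2 form a heterodimer on the alpha ring and both genes had ratios below 0. PSMG1 was at 30.79 FPKM in FZD2 shRNA cells against 55.83 in control cells (log2 ratio -0.84), and PSMG2 at 37.07 against 50.40 (-0.43). With the GC trend taken out PSMG2 was at 0.05 and PSMG1 at -0.37. The other heterodimer, PSMG3 with PSMG4, had ratios above 0. PSMG3 was at 57.95 against 49.85 FPKM (0.21, with shared reads), and its count interval included 0 (-0.08 to 0.35). PSMG4 was at 22.20 against 15.40 FPKM (0.50), from 150 and 101 reads, a count log2 ratio of 0.61 (0.23 to 0.98). POMP, a core assembly factor outside the symbol rule, was at 58.94 against 43.40 FPKM (0.43).

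The alternative activators differed little. PSME1 and PSME2, the interferon-inducible subunits of a ring-shaped activator, were at 198.52 against 197.02 FPKM (log2 ratio 0.01) and 139.10 against 149.89 FPKM (-0.11), both within counting error. PSME3, the nuclear form, was at 41.34 against 49.65 FPKM (-0.26). PSME4, a single large activator, was the least abundant member in both libraries at 8.06 against 8.69 FPKM (-0.10). PSMF1, a proteasome-binding regulator first described as an inhibitor, was at 15.17 against 18.08 FPKM (-0.24).

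The order of levels was nearly kept. Across the 44 members, FPKM of both libraries had a Spearman rank correlation of 0.946, a description over genes of the same pair of libraries. The spread of levels was wider in the FZD2 shRNA library: the coefficient of variation was 73.1% against 59.8% over the core genes and 66.6% against 49.1% over the regulatory genes. Split at the members' median level of 81.7 FPKM, averaged on the log scale over both libraries, 13 of the 22 more abundant members had a ratio above 0 (median 0.15). Of the 22 less abundant ones 8 did (median -0.29). Protein-coding genes without shared reads showed a like pattern: 52.4% of the 569 at or above that level were above 0, and 36.5% of the 3381 below it, down to 8.37 FPKM. The more and less abundant members also differed in GC content (medians 51.9% and 46.0%), while those coding genes differed less (53.0% and 51.8%). The parts of level and GC content among the members were not tested.

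The ratios also moved with the GC content of the transcripts, as they did across the transcriptome. Of 13 members under 45% GC, 11 had a ratio below 0 (median -0.40), and of 11 members from 50 to 55% GC, 2 did (median 0.18). Measured genes without shared reads had medians of -0.53 and -0.26 in the same bins. Spearman's rho between GC content and log2 ratio was 0.49 over the 44 members and 0.37 over 7999 such genes, where genes share their libraries and are not replicates. PSMC2 (44.6% GC), PSMD10 (43.6%), PSMC6 (38.1%) and PSMD5 (43.6%) lay below the median of such genes in their bin. PSMD1 (44.3%), PSMD7 (45.8%) and PSMA4 (40.8%) lay far above theirs, and with the trend taken out they had ratios of 1.40, 1.18 and 1.03. The median of all measured genes was then 0.23, and that of measured genes without shared reads -0.01.

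**Figure D4:**
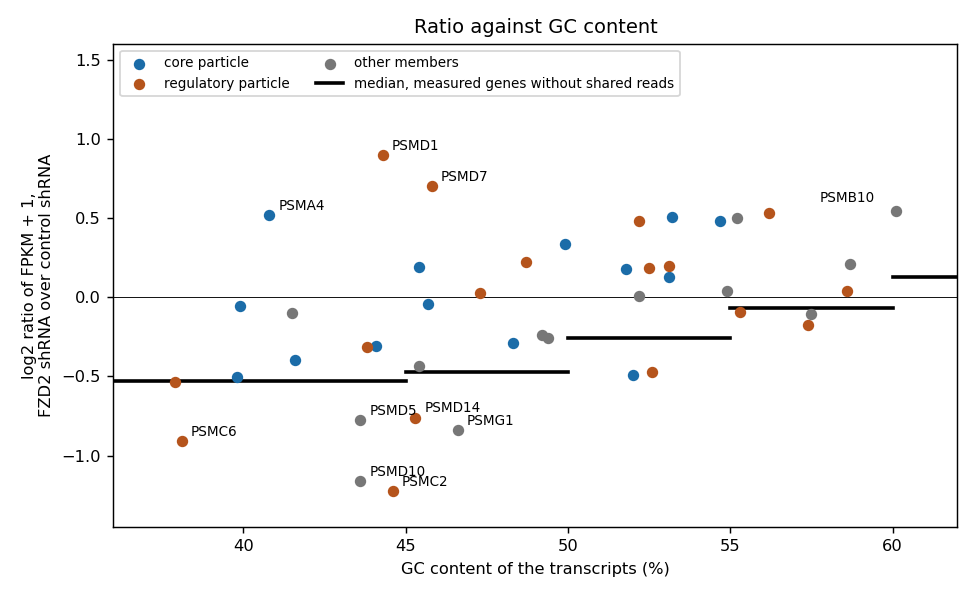
Log2 ratio of FPKM + 1, FZD2 shRNA over control shRNA, against the GC content of the transcripts in percent, with core, regulatory and other members in separate colours. Black lines are medians of measured genes without shared reads in 5 GC bins, from -0.53 under 45% to 0.13 at 60% and above. Members with low GC lie on both sides of the lines, from PSMC2 at -1.23 to PSMD1 at 0.90.

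Reads that could belong to more than 1 gene touched 7 of the 44 members, which shows in counts that are not whole numbers (PSMA5, PSMB2, PSMD4, PSMD5, PSMD9, PSMD12 and PSMG3). The other 37 had a median log2 ratio of -0.06. In the GENCODE annotation, 13 members overlap an exon of an opposite-strand gene that the files list, such as PSMC1 with NRDE2 and PSMD13 with SIRT3. No source used here states the strand setting, so reads of such pairs cannot be told apart. For 4 members the deposited length differed by 5% or more between the libraries: PSMB5, PSMD2, PSMD6 (-8.47%) and PSMG4 (5.50%).

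Other genes of the ubiquitin-proteasome system were mixed, with the 4 genes called lower among delivery factors and proteasome-bound enzymes. Genes were taken out of the lists after the values were seen. List shares and medians, here and below, thus only describe the genes kept. Of 34 genes in the lists 32 were measured, of which 0 were at least 2-fold higher and 4 (12.5%) lower. Among measured genes without shared reads 10.2% were 2-fold lower. Their median log2 ratio was -0.31, near the -0.25 of those genes. With the GC trend taken out these medians were 0.02 and -0.01. The remaining proteasome subunits ADRM1, a ubiquitin receptor, and SEM1, a lid component, were at 169.49 against 142.65 FPKM (0.25) and 348.33 against 283.51 FPKM (0.30). NFE2L1, the transcription factor of the subunit genes, was at 56.49 FPKM in FZD2 shRNA cells against 80.77 in control cells (-0.51). The list that holds NFE2L1 had 9 measured genes, among them POMP and other proteasome-related factors. Of these, ZFAND5 (-0.81, with shared reads) and PAAF1 (-0.64) were past 1.5-fold lower and 0 were past 1.5-fold higher. Of all measured genes 21.7% were at least 1.5-fold lower and 26.1% higher, and of those without shared reads 29.8% and 11.2%.

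The shuttle factors, which carry ubiquitinated proteins to the proteasome, had ratios on both sides of 0. RAD23B was at 30.60 FPKM in FZD2 shRNA cells against 78.27 in control cells (log2 ratio -1.33; its reads were partly shared). UBQLN1 was at 21.90 against 46.37 FPKM (-1.05, or -0.93 with a pseudocount of 5 FPKM) and UBQLN2 at 7.35 against 15.20 (-0.96), whereas UBQLN4 was at 37.50 against 29.44 (0.34). The segregase VCP, which pulls proteins out of complexes, was at 55.35 against 81.45 FPKM (-0.55). The list of shuttle factors and segregase also held UFD1 (-0.38), NGLY1 (-0.93), NPLOC4 (0.06), ZFAND2A (0.06), ZFAND2B (0.27) and BAG6 (0.02, with shared reads). Of its 11 measured genes 2 (18.2%) were 2-fold lower and 0 higher. Among all measured genes 7.41% were 2-fold lower, and 10.2% among those without shared reads. The list's median log2 ratio was -0.38, against -0.25 for genes without shared reads. After removal of the GC trend the list's median was 0.02, against -0.01 for genes without shared reads.

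Enzymes that sit on the proteasome also lay on both sides. The ubiquitin ligase UBE3C was at 5.88 FPKM in FZD2 shRNA cells against 16.38 in control cells (log2 ratio -1.34, or -0.97 with a pseudocount of 5 FPKM). The ligase UBE3A was at 31.88 against 19.16 FPKM (0.71). The deubiquitinase UCHL5 was at 13.03 against 30.55 FPKM (-1.17, or -0.98 with a pseudocount of 5 FPKM), although its counts of 398 and 714 gave a count log2 ratio of -0.81 (-0.99 to -0.63). USP14, another deubiquitinase, was at 16.11 against 21.65 FPKM (-0.40, with shared reads). Their list, of ubiquitin activation and proteasome-bound enzymes, also held UBA1 (0.08), UBA6 (-0.67) and HUWE1 (-0.19). Of its 7 measured genes 2 (28.6%) were 2-fold lower and 0 higher. Among all measured genes 7.41% were 2-fold lower, and 10.2% among those without shared reads. After removal of the GC trend, RAD23B (-0.81), UBQLN1 (-0.57), UBE3C (-0.89) and UCHL5 (-0.65) no longer reached 2-fold lower, while UBE3A (1.22) passed 2-fold higher. That step also moved the median of all measured genes to 0.23. Of the ubiquitin genes, UBB was at 237.05 against 396.75 FPKM (-0.74, with shared reads) and RPS27A at 804.31 against 819.88 (-0.03).

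**Figure D5:**
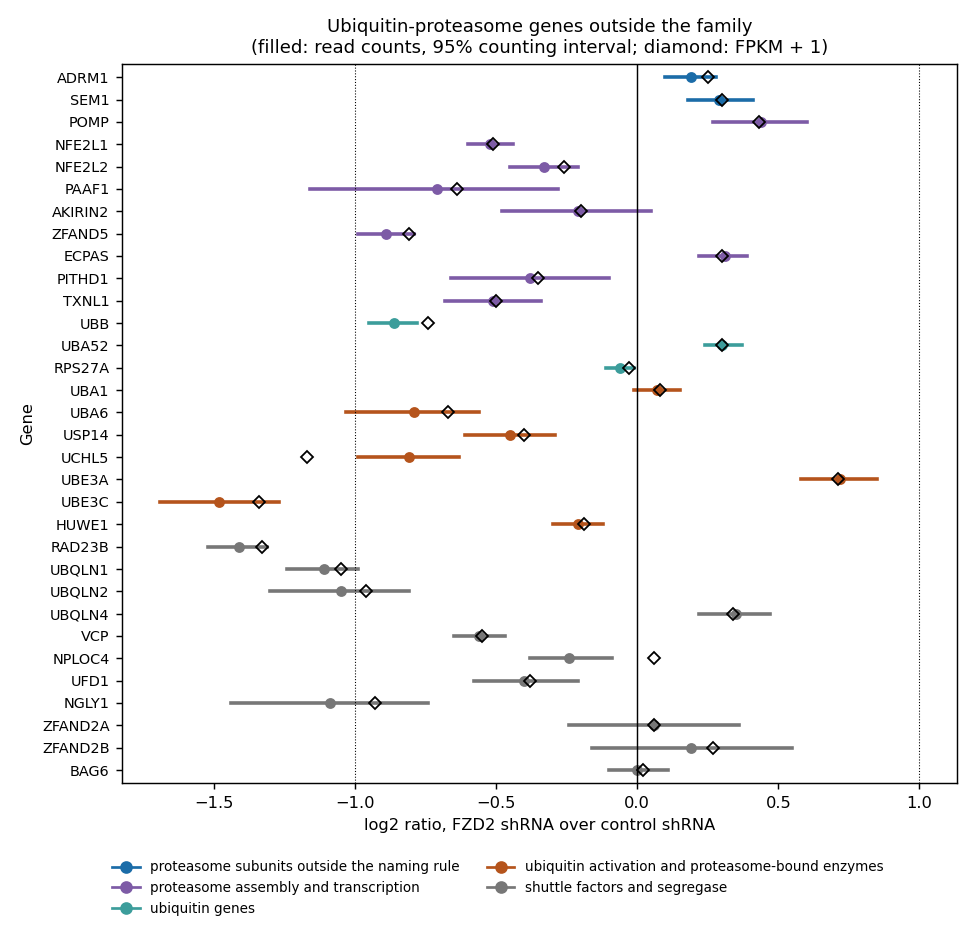
Log2 ratio, FZD2 shRNA over control shRNA, of 32 measured ubiquitin-proteasome genes outside the PSM family, coloured by list. Filled points are ratios of read counts with the 95% counting interval, open diamonds are ratios of FPKM + 1, and dotted lines mark 2-fold. UBE3C, RAD23B, UCHL5 and UBQLN1 have diamonds beyond the lower line, and no gene lies beyond the upper one.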

How the data were processed

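RNA was measured in 2 libraries of SNU449 cells, 1 per shRNA. Per the file headers, each deposited file gives for every listed gene an expected count (estimated reads, not normalized by the authors), an FPKM value (deposited by the authors as scaled for length and depth) and a gene length. Bowtie2, HISAT and the hg19 build are named per the submitters' processing notes. For the counting program, the annotation and strandedness, none of the sources used here gives it.

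Symbols and biotypes came from RefSeq (GRCh38.p14) by gene identifier, and a gene missing from 1 file was set to 0. Ratios used a pseudocount of 1 FPKM, which understates the differences of low genes. Calls used limits of 2-fold and 1.5-fold. Without replicates no p-value is given. Counting intervals (95%) are exact conditional binomial intervals on rounded expected counts scaled to library totals. Reads are not independent molecules, so they cover counting error only, and 3 counts are 3.64e-05% and 3.56e-05% of the totals. Reads were called shared where an expected count was not whole to 0.001. GC content came from GENCODE transcripts matched by RefSeq accession (96.1% of measured genes), with a lowess trend (fraction 0.3) over genes without shared reads. The trend was subtracted without recentring, so the overall level of those genes was removed with it. The ratio and interval code was tested on simulated data.

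All members were named, with some genes of the lists. Other genes were taken out of the lists after the values were seen and are not reported here, so the lists' counts and medians do not cover them. Members, lists and alternatives were chosen with earlier results of these data known, and the promoters shown were chosen after the values were seen. Alternatives were other pseudocounts, filters, size limits and scalings (TPM, TMM in edgeR 4.0.16, CPM). The other tools were matplotlib 3.10.9, statsmodels 0.14.6, SciPy 1.17.1, pandas 2.3.3 and NumPy 2.4.6 in Python 3.11.15.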

Additional observations from a re-analysis of the deposited data

How the results depend on the processing

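Under 12 alternatives for each median and 13 for the difference, a move was judged against the typical half-width of a single gene's counting interval. That was 0.10 for the core, 0.12 for the regulatory particle and their sum for the difference. It is not the counting error of a median. The core median (0.04), the regulatory median (0.03) and their difference (0.02) moved beyond it with the GC trend taken out (0.45, 0.19 and 0.26). The medians also did so in TPM (0.20 and 0.18), where the median of all measured genes was 0.14. The counts of 0 higher and 2 lower members became 3 and 0 with the GC trend taken out, 2 and 6 at 1.5-fold, 0 and 0 at 4-fold, and 16 and 19 where the counting interval excludes 1. In TPM 1 member was higher, and with a pseudocount of 5 FPKM 1 was lower. Among single members, 12 of 44 changed sign with the GC trend taken out and 5 in TPM, neither of them PSMC2 or PSMD10, and 0 did with the other pseudocounts, filters, TMM, CPM or centring. Removal of the GC trend and TPM also moved the median of all measured genes, to 0.23 and 0.14. The cause was not tested. No paired analysis was possible because each group has 1 library. Depth limits PSMG4 most, with 101 reads in the control library.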
